A study of Mus musculus with 7 samples.

Results

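Ly6d, its relatives Ly6a, Ly6e, Ly6c1 and Ly6k, and Thy1 encode small proteins held in the outer cell membrane by a glycosylphosphatidylinositol (GPI) anchor. These 6 genes, of 16734 in the deposited table, were followed across thymus libraries of wild type mice and of mice with a mutated Ikaros zinc finger. They were taken by symbol. Ly6d was the gene that led to the choice, because it was low in ZnF4-/- and lower than wild type in ZnF1-/-, so its levels are given as a description with no test. The values are RPKM, that is exonic reads corrected for the length of the transcript and the size of the library. Polyadenylated RNA of the thymus was measured at 4 weeks of age. The wild type group was C57BL/6 (3 libraries, named 1, 2A and 2B). The ZnF1-/- group was homozygous for a mutation of the first zinc finger of Ikaros (2 libraries, named 1 and 2), and the ZnF4-/- group was homozygous for one of the fourth (2 libraries, named 1 and 2). Ikaros, encoded by Ikzf1, is a DNA-binding regulator of lymphocyte development. The labels name no restriction of either mutation to a cell type, and they do not say whether the libraries of a group came from separate animals. The p-values therefore measure the spread between these libraries, which may be partly technical. The sample titles name the thymus, while the deposited values are named for thymocytes. How far other cells of the thymus were kept cannot be read from these names. In bulk RNA, fewer cells of a type and less RNA per cell cannot be told apart.

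Proteins of the Ly6 family fold into a compact domain of 3 loops that is held together by pairs of cysteines, and mouse lymphocytes have long been sorted by antibodies to them. Ly6d, once called ThB, is found on thymocytes and on B-lineage cells. Ly6a is Sca-1, a marker of blood stem cells that many peripheral T cells also carry. Ly6e, also called TSA-1 or Sca-2, marks immature thymocytes, while Ly6c1 and its close copy Ly6c2 carry the Ly6C antigen of monocytes and some T cells. Ly6k is best known from the testis. Thy1, or CD90, is the classical surface marker of mouse T cells; it belongs to the immunoglobulin superfamily and shares with the others the GPI anchor, not the fold.

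The cysteine pattern of the family can be read in the coding sequences, and it is shown here for Ly6d, Ly6k and Ly6a, the 3 of the 4 tested Ly6 members with the largest log2 differences between groups. Each stretch runs in frame from the first codon of the conserved cysteine array to the codon after its last. Capitals mark the in-frame cysteine codons, 10 in each stretch, and the letters were taken from the mm9 genome on the coding strand.
Ly6d: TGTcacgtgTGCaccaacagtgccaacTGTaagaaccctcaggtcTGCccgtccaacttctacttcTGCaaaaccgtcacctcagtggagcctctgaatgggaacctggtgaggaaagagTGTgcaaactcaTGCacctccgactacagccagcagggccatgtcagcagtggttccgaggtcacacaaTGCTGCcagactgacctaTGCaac
Ly6k: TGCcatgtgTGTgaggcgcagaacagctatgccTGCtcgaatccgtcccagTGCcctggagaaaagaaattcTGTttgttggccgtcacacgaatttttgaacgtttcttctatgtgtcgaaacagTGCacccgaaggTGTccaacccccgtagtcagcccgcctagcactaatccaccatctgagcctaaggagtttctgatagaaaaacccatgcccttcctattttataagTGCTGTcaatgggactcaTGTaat
Ly6a: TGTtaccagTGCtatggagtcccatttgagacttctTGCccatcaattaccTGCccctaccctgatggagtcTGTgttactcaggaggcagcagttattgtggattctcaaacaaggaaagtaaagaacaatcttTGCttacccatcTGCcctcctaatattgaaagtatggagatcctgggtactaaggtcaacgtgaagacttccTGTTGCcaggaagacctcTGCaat
The Ly6d stretch has 213 bases, that of Ly6k 258 and that of Ly6a 231. The spacing of the 10 codons differs between the genes, and in each the array closes with a pair of adjacent cysteine codons and then a single one. The whole coding sequence of Ly6d was 52.6% identical to that of Ly6a and 54.9% identical to that of Ly6k over aligned bases, and the Thy1 coding sequence held 4 cysteine codons in all.

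A second set of sequences bears on how far reads of Ly6c1 can be assigned. The stretches below cover coding bases 66 to 185 of Ly6c1 and of Ly6c2, and the matching 120 bases of Ly6a, with every base that differs from Ly6c1 in capitals.
Ly6c1: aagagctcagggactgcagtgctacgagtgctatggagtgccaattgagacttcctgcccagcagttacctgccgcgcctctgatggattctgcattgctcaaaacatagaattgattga
Ly6c2: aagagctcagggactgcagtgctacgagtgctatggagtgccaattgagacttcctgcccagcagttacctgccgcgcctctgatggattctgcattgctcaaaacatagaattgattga
Ly6a: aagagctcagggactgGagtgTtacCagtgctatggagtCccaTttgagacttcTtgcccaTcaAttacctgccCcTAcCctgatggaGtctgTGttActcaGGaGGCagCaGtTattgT
Ly6c1 and Ly6c2 are identical over this stretch and differ at 9 of 396 bases in the whole coding sequence, whereas Ly6a differs from Ly6c1 at 25 of the 120. Of all 50-base windows in the Ly6c1 transcript, 31.9% also occurred in Ly6c2, and of all 76-base windows 21.2% did. For Ly6a the shared part was 4.42% of 50-base windows, in Ly6c2 or Ly6i, and 0.67% of 76-base windows. Ly6d, Ly6k, Ly6e and Thy1 shared no window with a protein-coding transcript of another gene. Only protein-coding transcripts were searched, not pseudogenes or the rest of the genome. Values of Ly6c1 and Ly6c2 are therefore uncertain, and how the authors treated reads that match both was not given in the sources used here.

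The libraries numbered 1 were read at 76 bp and the others at 50 bp on another instrument, and this split was the main axis of the data: the first principal component, with 47.9% of the variance, separated the 3 libraries at 76 bp from the 4 at 50 bp. The sexes were split the same way: Xist ranged from 90.6 to 109 RPKM at 76 bp and from 0.01 to 0.03 at 50 bp, while Ddx3y ranged from 0 to 0.01 and from 13.2 to 17.4. Read length, instrument and sex cannot be told apart here, but each number holds every genotype, so each comparison can be read within a number. Between 10185 and 10695 genes reached 1 RPKM in a library. Ikzf1 lay at 142 to 175 RPKM in wild type, 183 and 194 in ZnF1-/- and 238 and 257 in ZnF4-/-; a value for the whole gene does not check the loss of a finger. The read totals were not given, but steps in the low values of the 76 bp libraries point to about 20120000 reads in wild type, 14280000 in ZnF1-/- and 6310000 in ZnF4-/-, an estimate that rests on 34.2% to 59.9% of the low values. Thymocyte markers such as Rag1 (644 to 965 RPKM) and Cd8a (386 to 636 RPKM) were high in every library.

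In wild type thymus the 6 genes spanned more than 3 orders of magnitude per unit of length. Thy1 was the 3rd most abundant gene of the table by its mean over all libraries, Ly6e the 17th and Ly6d the 40th. Ly6k and Ly6a were middling, at rank 6145 and 6972, and Ly6c1 was near 0, at rank 12043. The mean levels in wild type were 1223 ± 278 RPKM for Thy1, 444 ± 37.9 for Ly6e, 383 ± 119 for Ly6d, 12.7 ± 3.53 for Ly6k, 5.95 ± 0.661 for Ly6a and 0.333 ± 0.274 for Ly6c1 (SD, n = 3 each). The wild type libraries of Ly6e and Ly6d overlapped, so their order is not settled, and the others in this order did not overlap. In ZnF4-/- the order was the same except that Ly6a (8.42 ± 1.63, SD, n = 2) lay above Ly6k (4.14 ± 0.976, SD, n = 2), with no overlap.

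**Figure D1:**
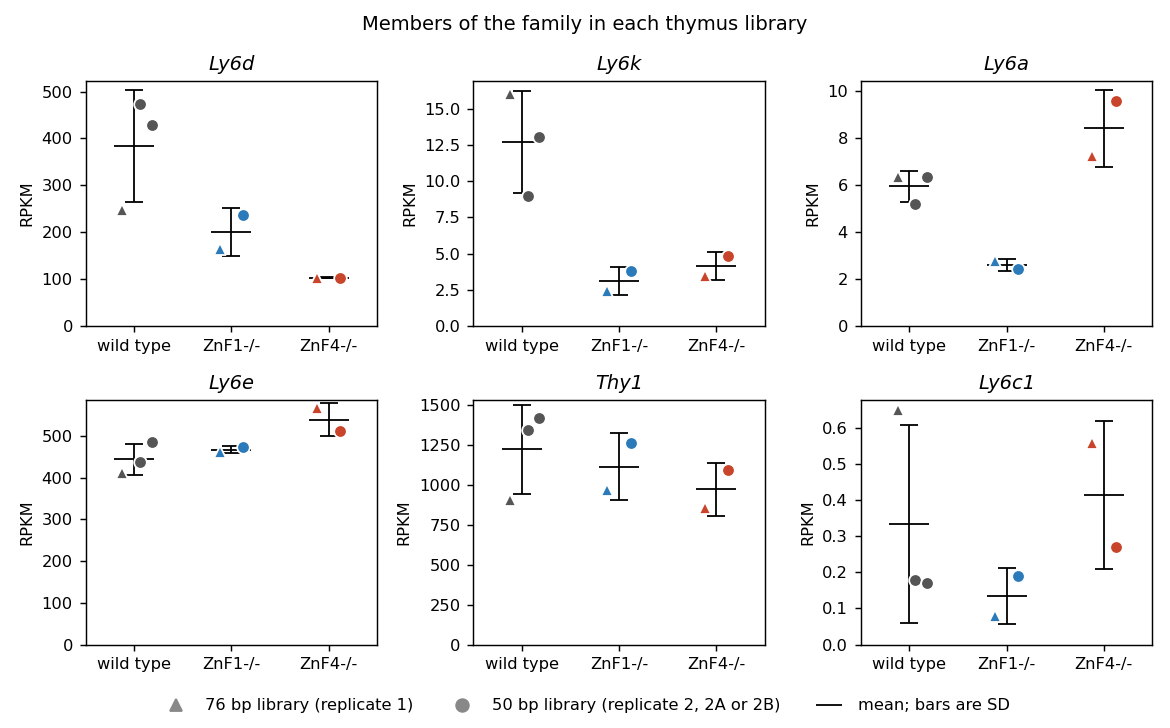
RPKM of the 6 genes in the 7 libraries, by genotype; triangles are 76 bp libraries, circles 50 bp libraries, and the horizontal mark with bars is the mean with its SD, each axis starting at 0. Ly6d steps down from wild type over ZnF1-/- (165 and 236) to ZnF4-/- (103 and 102), Ly6k is low in both mutants, Ly6a is lowest in ZnF1-/-, and Ly6e and Thy1 stay high in all libraries.

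Among the 3 abundant genes Ly6d, chosen for its low level in the mutants, had the widest range over the libraries on the log2 scale. In RPKM the range of Thy1 was wider. In wild type it lay at 248 RPKM in library 1, 474 in 2A and 428 in 2B, in ZnF1-/- at 165 and 236, and in ZnF4-/- at 103 and 102. Every mutant library was below every wild type library, and both ZnF4-/- libraries were below both ZnF1-/- libraries. The 2 ZnF4-/- values differed by about 1 RPKM, although wild type differed between the read lengths. The gene lies on chromosome 15, from 74592486 to 74593997 on the minus strand (mm9).

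Within the 76 bp libraries Ly6d in ZnF1-/- stood at 66.6% of wild type and in ZnF4-/- at 41.8%. Within the 50 bp libraries it stood at 52.4% and 22.7% of the mean of the wild type libraries. The order wild type, ZnF1-/-, ZnF4-/- was thus found within each number, with a wider gap at 50 bp. Over all libraries the log2 fold change of RPKM + 0.5 from wild type was -0.90 ± 0.31 for ZnF1-/- and -1.84 ± 0.31 for ZnF4-/-, and the mutants differed by -0.94 ± 0.34 (ZnF4-/- less ZnF1-/-, SE from limma). These comparisons share libraries, so their order is no independent support. With the replicate number as a block the SEs were smaller, and the differences were -0.82 ± 0.18, -1.75 ± 0.18 and -0.94 ± 0.20. Ly6d took 0.140% of the summed RPKM of wild type library 1 and 0.0557% of that of ZnF4-/- library 1.

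Ly6k was the other member that was low in both mutants. It lay at 16.0, 8.96 and 13.1 RPKM in the wild type libraries 1, 2A and 2B, at 2.41 and 3.81 in ZnF1-/-, and at 3.45 and 4.83 in ZnF4-/-. No mutant library reached the lowest wild type library, and the mutants overlapped each other. The ZnF4-/- libraries had 21.6% of the wild type level at 76 bp and 43.9% at 50 bp, and the ZnF1-/- libraries 15.1% and 34.6%. Where the estimate of depth holds, the 76 bp values stand for about 250 reads in wild type, 26.7 in ZnF1-/- and 16.9 in ZnF4-/-.

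Ly6k fell in ZnF4-/- against wild type, with a log2 fold change of -1.48 ± 0.29 (limma, adjusted p = 0.0459). The call is a narrow one: it was lost in 9 of 16 alternative fits, among them those without wild type library 1 (adjusted p = 0.0658), without wild type 2B (0.190), without ZnF4-/- library 1 (0.349) and without ZnF4-/- library 2 (0.172). In ZnF1-/- the estimate was as low, -1.86 ± 0.29, but did not pass (limma, adjusted p = 0.1235) unless the replicate block was used (-1.84, adjusted p = 0.0263). The difference between the mutants was 0.37 ± 0.31 (limma, adjusted p = 0.976). The gene lies on chromosome 15, from 74627304 to 74630416 on the minus strand, next to Ly6d.

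Ly6a set the mutants apart from each other. It lay at 6.33, 5.19 and 6.34 RPKM in wild type, at 2.77 and 2.43 in ZnF1-/-, and at 7.26 and 9.57 in ZnF4-/-. The 3 groups did not overlap: ZnF1-/- was the lowest and ZnF4-/- the highest. Against ZnF1-/-, Ly6a rose in ZnF4-/- by 1.51 ± 0.19 on the log2 scale (limma, adjusted p = 0.00846). That is 2.62 times the ZnF1-/- level at 76 bp and 3.94 times at 50 bp.

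The ZnF4-/- to ZnF1-/- difference of Ly6a did not pass without ZnF1-/- library 2 (1.43, adjusted p = 0.0559) or without ZnF4-/- library 2 (1.33, adjusted p = 0.0761), and it passed in the other 14 of 16 alternative fits. Against wild type the log2 difference was -1.05 ± 0.17 in ZnF1-/- (limma, adjusted p = 0.128), which passed only with the replicate block (adjusted p = 0.0267). In ZnF4-/- it was 0.46 ± 0.17 (limma, adjusted p = 0.4035; 0.141 with the block). Ly6a lies on chromosome 15, from 74825308 to 74828064 on the minus strand.

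Ly6e, the abundant family member of immature thymocytes, lay at 410, 437 and 485 RPKM in wild type, at 462 and 473 in ZnF1-/-, and at 567 and 511 in ZnF4-/-. Both ZnF4-/- libraries were above all others, by a small margin at 50 bp, where ZnF4-/- stood at 110.8% of wild type. None of its differences passed: 0.08 ± 0.19 in ZnF1-/- and 0.28 ± 0.19 in ZnF4-/- against wild type, and 0.20 ± 0.21 between the mutants (limma, adjusted p of 0.9999, 0.8165 and 0.9993). Ly6e lies on chromosome 15, from 74785481 to 74790335 on the plus strand.

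Thy1 lay at 905, 1344 and 1419 RPKM in wild type, at 968 and 1262 in ZnF1-/-, and at 857 and 1091 in ZnF4-/-. The groups overlapped, and the 76 bp libraries were below the 50 bp libraries in every genotype. Log2 differences of -0.12 ± 0.29, -0.31 ± 0.29 and -0.19 ± 0.32 were estimated for the same 3 comparisons, and none passed (limma, adjusted p of 0.9999, 0.9269 and 0.9993). Within a number, ZnF4-/- had 94.6% of the wild type level at 76 bp and 78.9% at 50 bp. Thy1 lies on chromosome 9, from 43851467 to 43856662 on the plus strand.

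Ly6c1 was listed at 0.65, 0.18 and 0.17 RPKM in wild type, at 0.08 and 0.19 in ZnF1-/-, and at 0.56 and 0.27 in ZnF4-/-. Its mean of 0.300 RPKM was below the limit of 1 RPKM set for testing. At the estimated depth, the 76 bp values stand for about 11.1, 1.0 and 3.0 reads, and part of its sequence is shared with Ly6c2, so no difference could be resolved. It lies on chromosome 15, from 74875447 to 74879260 on the minus strand.

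So 5 of the 6 genes were tested. Ly6d was chosen for its low level in these contrasts, so it is left out of the counts that follow, which cover the other 4. In ZnF4-/- against wild type Ly6k fell and none rose, with 2.54% of all 10498 tested genes called (0.305% lower and 2.24% higher). With the replicate block Ly6k again was the member that fell, where 2.12% of all tested genes were lower. In ZnF1-/- limma called none of the 4 against wild type, with 0.0857% of all tested genes called. With the block 2 fell, Ly6a and Ly6k, with 0.305% of all tested genes lower. Between the mutants Ly6a rose in ZnF4-/- and none fell, with 2.34% called (2.02% higher). With the block Ly6a rose as well and none of the 4 fell, with 5.19% of all tested genes higher and 2.1% lower. With Ly6d included, the median log2 fold change of the 5 relative to wild type was -0.90 for ZnF1-/- and -0.31 for ZnF4-/-. For ZnF4-/- relative to ZnF1-/- it was 0.20. The medians for all tested genes were -0.02, -0.05 and -0.03. The -0.90 is the value of Ly6d itself, which was chosen for its low level. Nothing about the family is therefore read from these medians. Libraries did not overlap with wild type on the low side for Ly6d, Ly6k and Ly6a in ZnF1-/- (6.99% of all tested genes) and for Ly6d and Ly6k in ZnF4-/- (10.6%), and on the high side for Ly6a and Ly6e in ZnF4-/- (12.5%). ZnF4-/- libraries lay apart from those of ZnF1-/- on the low side for Ly6d (16.8%) and on the high side for Ly6a and Ly6e (15.2%). For Ly6d these are the contrasts it was chosen on, and nothing is read from its place there.

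**Figure D2:**
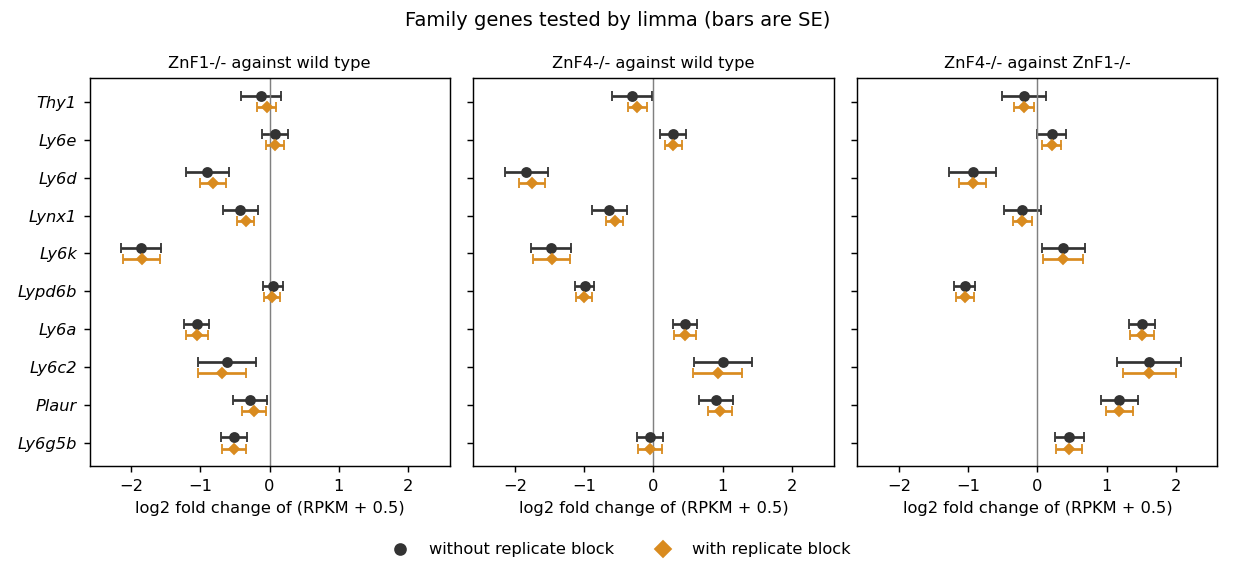
Log2 fold changes of RPKM + 0.5 for the 10 tested family genes in the 3 comparisons, with bars for the SE; dots are the fit without the replicate block and diamonds the fit with it. Ly6d and Ly6k lie left of 0 in both mutants (-1.84 and -1.48 in ZnF4-/-), Lypd6b lies left of 0 in both comparisons of ZnF4-/- (-0.996 against wild type), and Ly6a, Ly6c2 and Plaur lie right of 0 in ZnF4-/- against ZnF1-/-, the latter pair having reached the limit for testing only through its ZnF4-/- libraries.

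Of 29 further genes of the Ly6 and uPAR family, 21 were in the table and 5 were tested. Lypd6b, a family member known as a modulator of nicotinic acetylcholine receptors, fell in ZnF4-/- and was the 1 gene of the 5 called without the replicate block. Against wild type 0.305% of all tested genes were called lower in that fit. It lay at 9.01, 9.27 and 7.93 RPKM in wild type and at 9.10 and 9.0 in ZnF1-/-, but at 4.38 and 3.88 in ZnF4-/-. The ZnF4-/- libraries stood apart from all others, at 48.6% of wild type at 76 bp and 45.1% at 50 bp. Of all tested genes, 10.6% lay below wild type in this way and 16.8% below ZnF1-/-. The log2 difference was -0.996 ± 0.14 against wild type (limma, adjusted p = 0.0121) and -1.05 ± 0.15 against ZnF1-/- (adjusted p = 0.0148). Leaving out either ZnF4-/- library ended both calls, with adjusted p of 0.0770 and 0.138 against wild type and of 0.0835 and 0.138 against ZnF1-/-. Leaving out wild type 2A (0.0560) or 2B (0.0519), or averaging them (0.0501), ended the first, and leaving out ZnF1-/- library 1 (0.107) or 2 (0.0841) ended the second. In ZnF1-/- against wild type the difference was 0.05 ± 0.14. Lypd6b lies on chromosome 2, from 49643208 to 49804369 on the plus strand, away from the Ly6 cluster.

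Lynx1, another modulator of nicotinic receptors, lay at 5.43, 8.80 and 8.03 RPKM in wild type, 4.37 and 6.44 in ZnF1-/- and 4.04 and 5.01 in ZnF4-/-. Its difference in ZnF4-/- was -0.64 ± 0.25 (limma, adjusted p = 0.427), called only with the replicate block (-0.56, adjusted p = 0.0277). Plaur, the urokinase receptor, lay at 0.67, 1.34 and 1.01 RPKM in wild type, 0.61 and 0.84 in ZnF1-/- and 2.01 and 2.56 in ZnF4-/-. Its libraries in ZnF4-/- were above all others, where 12.5% of all tested genes lay above wild type and 15.2% above ZnF1-/- without overlap. Ly6c2, the close copy of Ly6c1, lay at 1.91, 0.71 and 0.51 RPKM in wild type, 0.26 and 0.66 in ZnF1-/- and 3.12 and 1.78 in ZnF4-/-. Both Plaur and Ly6c2 reached a mean of 1 RPKM only through their ZnF4-/- libraries, so their levels are given as a description with no test. Ly6g5b differed by -0.51 ± 0.19 in ZnF1-/- against wild type (limma, adjusted p = 0.9999), with levels of 0.79 to 1.75 RPKM over all libraries. Of Lypd6b, Lynx1 and Ly6g5b, Lypd6b was thus called lower in ZnF4-/- in both comparisons without the block, and none was called higher. Of all tested genes, 0.305% were lower and 2.24% higher against wild type, and 2.34% were called in either direction against ZnF1-/-.

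Lypd1, which was chosen for mention after its values were seen, missed the limit for testing with 0.02, 0.01 and 0.03 RPKM in wild type, 0.17 and 0.27 in ZnF1-/- and 3.33 and 2.92 in ZnF4-/-. It was near 0 in wild type and above 2.9 RPKM in both ZnF4-/- libraries. Having been picked for this pattern, it was not tested. About 16.2% of its 76-base windows also occur in Gpr39, which overlaps it, so some of its reads may belong there.

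Most of the Ly6 genes sit in a cluster on chromosome 15, and the genes within 1000 kb of the start of Ly6d were read in their order. This window held 37 protein-coding genes in the mm9 annotation, of which 27 were in the table and 11 were tested. Leaving aside Ly6d, for which the window was drawn, Ly6k, whose start is 36.4 kb away, was called lower in ZnF4-/- against wild type and none was called higher, where 0.305% of all tested genes were lower. Lynx1, whose start is 10.6 kb from that of Ly6d on the other side, was called lower with the replicate block alone, where 2.12% of all tested genes were lower. Farther out, Ly6e at 191.5 kb and Ly6a at 234.1 kb had estimates above 0 in ZnF4-/- (0.28 and 0.46, neither called). The 5 tested genes of the window that are no Ly6 genes, Arc, Jrk, 4930572J05Rik, Zfp41 and Top1mt, had estimates between -0.45 and 0.16 in ZnF4-/- and none was called.

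**Figure D3:**
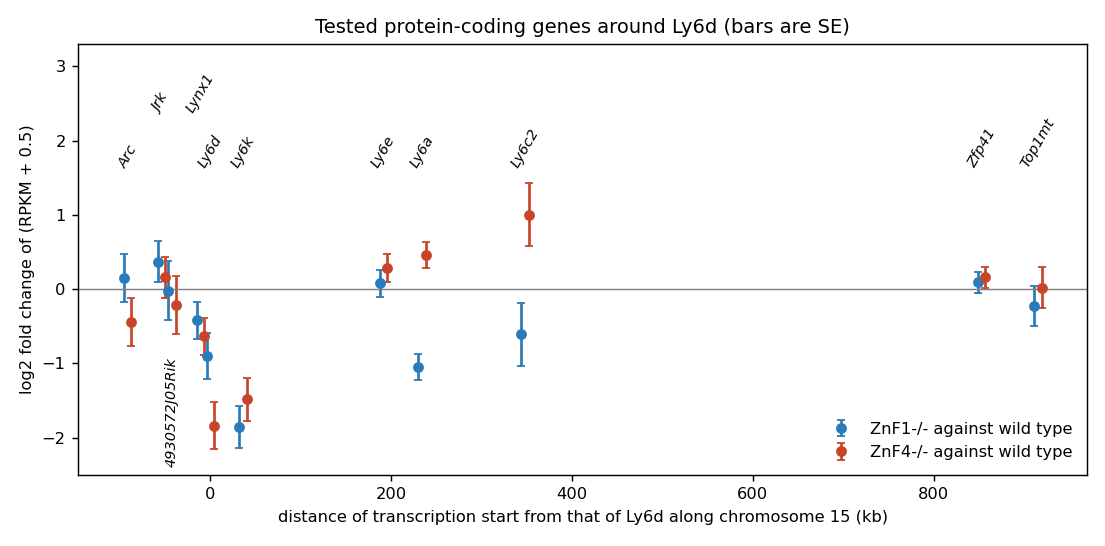
Log2 fold changes of RPKM + 0.5 (vertical axis, bars are SE) for the 11 tested protein-coding genes around Ly6d, by the distance of their start from that of Ly6d in kb; blue is ZnF1-/- and red ZnF4-/-, each against wild type. Ly6d and Ly6k are the low points of both colours near 0 kb, at -1.84 and -1.48 in ZnF4-/-, and Ly6a at 234.1 kb is below 0 in ZnF1-/- and above 0 in ZnF4-/-.

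The likeness of other genes to Ly6d was measured by Pearson's r of log2(RPKM + 0.5) over the 7 libraries, among 2080 tested genes with a range of at least 1 log2 unit. The 5 most alike were Tubb2a-ps2 (r = 0.98), Lonrf1 (0.98), Tmem151b (0.97), Hsd11b1 (0.97) and Prep (0.96). These values are a description: the libraries share their read length and the genes were picked for their r. Prep, the prolyl endopeptidase, lay at 41.8, 59.2 and 53.2 RPKM in wild type, 25.2 and 35.3 in ZnF1-/- and 21.5 and 26.7 in ZnF4-/-. Hsd11b1, which regenerates active glucocorticoid from its inactive form, lay at 13.4, 15.1 and 15.9 RPKM in wild type, 10.1 and 12.4 in ZnF1-/- and 7.65 and 9.04 in ZnF4-/-. Like Ly6d, both stepped down from wild type over ZnF1-/- to ZnF4-/- within each number. For Thy1 the 5 most alike of 10497 genes were Fau, Bcl6, Tmem43, Fam32a and Fam65a, with r between 0.9937 and 0.9963. Their levels were lower in every 76 bp library than in any 50 bp library, as for Thy1; read length, instrument and sex cannot be told apart in this split.

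**Figure D4:**
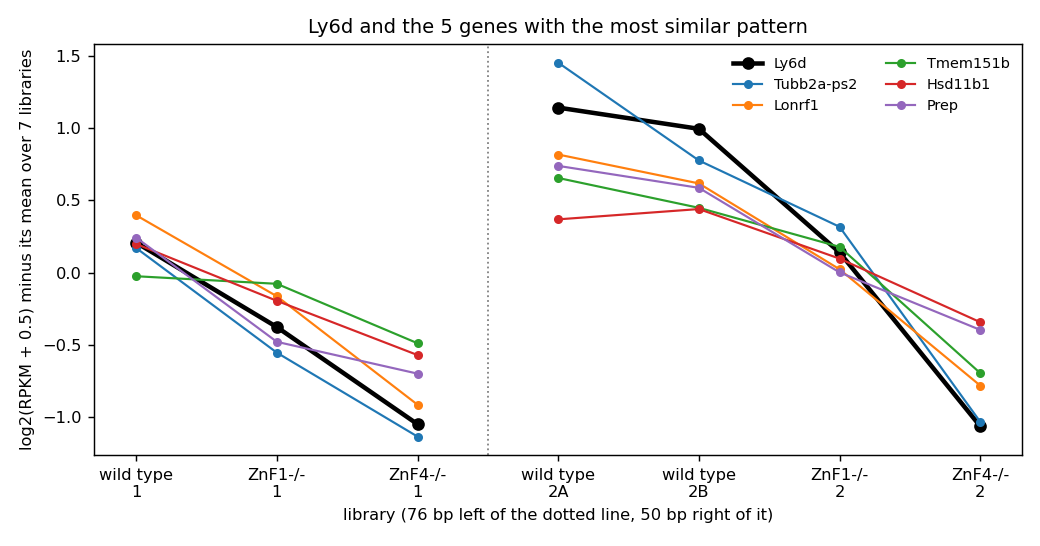
Log2(RPKM + 0.5) less its mean over the 7 libraries for Ly6d (black) and the 5 genes with the most similar pattern, by library; lines join libraries of the same read length. Each of the 6 lines goes down from wild type over ZnF1-/- to ZnF4-/- on both sides of the dotted line, which separates 76 bp from 50 bp libraries.

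All members carry a GPI anchor, so the enzymes that build and attach it were read as a list. Of 30 such genes, 28 were tested, and limma called none in any of the 3 comparisons with or without the replicate block. Without the block 0.0857%, 2.54% and 2.34% of all tested genes were called. An unadjusted p under 0.05 was found for 0, 1 and 1 of the 28. Of all 10498 tested genes, 404 had such a p in ZnF1-/- and 1063 in ZnF4-/- against wild type. The median log2 fold change was 0.01 in ZnF1-/- and -0.01 in ZnF4-/- against wild type, and 0.01 between the mutants. Pigl, the second enzyme of the pathway, lay at 6.58 to 7.48 RPKM in wild type and at 11.6 and 8.5 in ZnF4-/- (0.47 ± 0.17, limma, adjusted p = 0.330). Pigk and Gpaa1, subunits of the transamidase that attaches the anchor, differed by 0.27 ± 0.14 and 0.33 ± 0.19 in ZnF4-/- against wild type (limma, adjusted p of 0.677 and 0.738). Of 30 other GPI-anchored surface proteins of lymphocytes 15 were tested. Gfra1, a coreceptor for a neurotrophic factor, rose in ZnF4-/- against ZnF1-/- (4.79 ± 1.31 to 11.1 ± 0.933 RPKM, SD, n = 2 each; log2 difference 1.16 ± 0.20, limma, adjusted p = 0.0269), where 2.02% of all tested genes were higher. This call passed in 9 of 16 alternative fits and was lost without any 1 of 5 libraries: ZnF1-/- 1 (0.142), ZnF4-/- 1 (0.134), ZnF4-/- 2 (0.2155), wild type 2A (0.0597) and wild type 2B (0.0844). With the block 3 of the 15 rose in ZnF4-/- against wild type, where 640 of all 10498 tested genes did. Against ZnF1-/- 4 of the 15 rose with the block, where 5.19% of all tested genes did. None of the 15 fell in either comparison.

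Ly6a and Ly6e are known to respond to interferon, and genes of that response were read beside them. Of 18 interferon-stimulated genes 17 were tested. In ZnF4-/- against wild type 3 rose and none fell, where 2.24% of all tested genes rose. With the replicate block 9 rose, where 640 of all 10498 tested genes did. The median log2 fold change was 0.65, beside -0.05 for all tested genes, with 15 of 17 above 0. Mx1 among the 17 reached the limit for testing only through ZnF4-/-. In ZnF1-/- limma called none of the 17, with or without the block, and the median was -0.04. An unadjusted p under 0.05 was found for 1 of them, and for 404 of all 10498 tested genes. Oasl2, an antiviral protein of the oligoadenylate synthetase family, rose from 3.25 ± 0.748 RPKM in wild type (SD, n = 3) to 11.3 ± 1.77 in ZnF4-/- (SD, n = 2), a log2 difference of 1.66 ± 0.23 (limma, adjusted p = 0.0116). It was lower in ZnF1-/- without passing (1.70 ± 0.446 RPKM, SD, n = 2; -0.77 ± 0.23, limma, adjusted p = 0.759), so that between the mutants it rose by 2.43 ± 0.25 (limma, adjusted p = 0.00336). Usp18, which removes ISG15 from proteins, rose by 0.88 ± 0.16 (limma, adjusted p = 0.0408) and Xaf1 by 0.97 ± 0.14 (limma, adjusted p = 0.0151) in ZnF4-/- against wild type. All 3 calls were lost without ZnF4-/- library 1 (adjusted p of 0.0723, 0.0647 and 0.0926, in this order), without ZnF4-/- library 2 (0.136, 0.266 and 0.161) and without wild type 2B (0.0597, 0.190 and 0.0817). Those of Usp18 and Xaf1 were also lost without wild type 2A (0.109 and 0.0634), and that of Usp18 without wild type 1 (0.0686) or either ZnF1-/- library (0.0725 and 0.0756). The summed level of the 18 genes lay at 208 to 217 RPKM in wild type, 213 and 216 in ZnF1-/- and 281 and 387 in ZnF4-/-. Ly6a had the same order of groups as Oasl2. Usp18 and Xaf1 did not have this order, with ZnF1-/- means of 8.37 and 4.52 RPKM above wild type means of 8.16 and 3.80. Whether the response plays a part in the level of Ly6a was not tested.

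Other cell types of the thymus carry Ly6 proteins too, so marker lists were set beside the members. Thymocyte markers, 10 of 10 tested, summed to 3864 to 4897 RPKM in wild type, 4343 and 4910 in ZnF1-/- and 3423 and 4006 in ZnF4-/-. None of the 10 was called by limma in any comparison without the block. An unadjusted p under 0.05 was found for 0, 2 and 3 in ZnF1-/- and ZnF4-/- against wild type and between the mutants. Of all 10498 tested genes, 404 and 1063 had such a p in ZnF1-/- and in ZnF4-/- against wild type. With the block 2 fell in ZnF4-/- against wild type, where 2.12% of all tested genes were lower. Against ZnF1-/- 3 fell and 1 rose with the block, where 2.1% of all tested genes were lower and 5.19% higher. Markers of mature and emigrating T cells summed to 308 to 387, 305 and 368, and 380 and 491 RPKM. With the block 5 of the 10 rose in ZnF4-/- against wild type, where 640 of all 10498 tested genes did. Against ZnF1-/- 5 rose and 1 fell with the block, where 5.19% of all tested genes were higher and 2.1% lower. Without the block S1pr1, the receptor that guides exit from the thymus, and Slfn1 rose against wild type. Their differences were 1.05 ± 0.18 and 1.04 ± 0.15 (limma, adjusted p of 0.0283 and 0.0158), where 2.24% of all tested genes were higher. Both were called against ZnF1-/- too, where 2.02% were higher. Against wild type each was lost without either ZnF4-/- library (adjusted p of 0.0960 and 0.233 for S1pr1, 0.0647 and 0.155 for Slfn1) and without wild type 2A (0.0760 and 0.0614) or 2B (0.112 and 0.0718). Against ZnF1-/- the call of S1pr1 was lost without ZnF1-/- 1 (0.0874) or ZnF4-/- 2 (0.102), and that of Slfn1 without ZnF1-/- 1 (0.0529), ZnF1-/- 2 (0.0526) or ZnF4-/- 2 (0.0701). Their part in the levels of Ly6a and Ly6d was not tested.

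Because Ly6d also marks B-lineage cells, the B-cell markers bear on it. Their sum lay at 20.8 to 25.8 RPKM in wild type, 27.5 and 36.8 in ZnF1-/- and 16.7 and 20.8 in ZnF4-/-, against 248 to 474 RPKM of Ly6d alone in wild type. Most of the sum was Cd79b. Its higher level in ZnF1-/- came from Cd79b alone, as every other listed B-cell marker had a lower mean there than in wild type. Ms4a1, Cd22 and Blnk, below the limit for testing, had means of 0.15, 0.12 and 0.56 RPKM in ZnF1-/-. Their wild type means were 1.09, 0.537 and 0.853, and their ZnF4-/- means 0.935, 0.62 and 0.795. Cd79a, which codes for the other signalling chain of the B-cell receptor, lay at 1.40 to 1.74 RPKM in wild type, 0.38 and 0.47 in ZnF1-/- and 1.83 and 1.93 in ZnF4-/-. Cd79a rose in ZnF4-/- against ZnF1-/- (1.36 ± 0.20, limma, adjusted p = 0.0148) while Cd79b fell (-1.36 ± 0.21, adjusted p = 0.0189); Ly6d was lower in that comparison. Both calls were lost without ZnF1-/- 2 (adjusted p of 0.060 for Cd79a and 0.0930 for Cd79b), ZnF4-/- 1 (0.0950 and 0.141), ZnF4-/- 2 (0.1055 and 0.111) or wild type 2B (0.0602 and 0.0620), and that of Cd79a also without ZnF1-/- 1 (0.1095). The part of B cells in the level of Ly6d was not tested.

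Myeloid markers were all tested, and limma called none of the 7 without the block, with 0, 1 and 2 at an unadjusted p under 0.05. Of all 10498 tested genes, 404 and 1063 had such a p in ZnF1-/- and in ZnF4-/- against wild type. With the block Itgam was called higher in ZnF4-/- against ZnF1-/- (0.95 ± 0.21, limma, adjusted p = 0.0331), where 5.19% of all tested genes were higher. These are the counts for the myeloid list. The 7 myeloid markers summed to 156 to 188 RPKM in wild type, 91.8 and 163 in ZnF1-/- and 183 and 611 in ZnF4-/-, where ZnF4-/- library 1 held S100a8 at 297 and S100a9 at 236 RPKM. The other myeloid markers were mixed there. Lyz2 (56.8 against 73.9 RPKM), Csf1r (2.92 against 3.68) and Itgam (4.64 against 6.05) were lower than in ZnF4-/- library 2. Cd68 (8.62 against 7.1) and Mpeg1 (4.98 against 3.69) were higher. Ly6c1 and Ly6c2, which monocytes carry, had their highest ZnF4-/- level in library 1, for Ly6c1 from about 3.0 reads at the estimated depth. Ly6c1 was highest of all in wild type library 1 (0.65 RPKM). The part of myeloid cells was not tested. Epithelial markers summed to 9.81 to 17.4, 8.41 and 14.6, and 34.3 and 38.1 RPKM. Most of the difference came from Cldn4, a tight-junction protein that rose, at 29.3 and 34.2 RPKM in ZnF4-/- (1.73 ± 0.31 against wild type, limma, adjusted p = 0.0347; 2.16 ± 0.34 against ZnF1-/-, adjusted p = 0.0206). Both calls of Cldn4 were lost without ZnF4-/- 1 (0.182 and 0.119), ZnF4-/- 2 (0.258 and 0.174) or wild type 2B (0.145 and 0.0580), and the second without ZnF1-/- 1 (0.114). Krt14 stayed at 0 to 0.01 and Foxn1 at 0 to 0.06 RPKM in every library. Fibroblast markers summed to at most 6.12 RPKM, with Pdgfra listed at 0 throughout and Pdgfrb called higher in ZnF4-/- against wild type (1.43 ± 0.27, limma, adjusted p = 0.0452), a call that held in 6 of 15 alternative fits and in none that left out 1 of the 7 libraries. Endothelial markers summed to 34.6 to 48.8, 42.3 and 47.0, and 48.9 and 53.7 RPKM, with none called by limma without the block. With the block Eng was called higher in ZnF4-/- against wild type (0.87 ± 0.12, limma, adjusted p = 0.00408), where 640 of all 10498 tested genes were. It was also called higher against ZnF1-/- (0.56 ± 0.13, limma, adjusted p = 0.0439), where 5.19% of all tested genes were. Early progenitor markers summed to 23.2 to 26.5 RPKM in wild type, 29.1 and 34.2 in ZnF1-/- and 26.3 and 21.1 in ZnF4-/-. Kit among them rose in ZnF4-/- against wild type (0.89 ± 0.15, limma, adjusted p = 0.0267). That call held in 7 of 15 alternative fits and in none that left out 1 of the 7 libraries. The other tested markers, Cd44 (0.21), Lyl1 (0.14) and Il2ra (-0.46), were not called in that comparison.

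The RefSeq promoter table (GRCm38.p6, 250 bases before to 50 after a start) held Ly6c1 among the 6 members, and Ly6d, Ly6k, Ly6a, Ly6e and Thy1 were not analysed there. The letters GGGAA, the core of Ikaros sites, stood on either strand in 62.7% of all 32851 promoter windows, and TGGGAA, which contains that core, in 25.6%. Both windows of Ly6c1 held GGGAA and neither held TGGGAA. With a motif that common, a match is a description of the letters only.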

How the data were processed

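Polyadenylated RNA of thymus was sequenced in 7 libraries of 3 groups. Per the labels, the authors deposited RPKM per gene; per the series design text, these came from exonic reads counted in SeqMonk against the NCBI annotation of mm9, with 1 transcript kept per gene. The submitters' processing notes name TopHat, bedtools and mm9; versions, strand and read totals are not given in the sources used here. RPKM is not a count, so no count model was used, and precision is known only from the spread of libraries. Adding a constant understates the fold change of low genes.

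Here log2(RPKM + 0.5) was tested for 10498 genes, those averaging 1 RPKM or more over all libraries, with limma 3.58.1 in R 4.3.3 (lmFit, eBayes with a trend; 4 residual and 3.26 prior degrees of freedom), in 1 fit of all 7 libraries without a block. The p-values are two-sided and were adjusted by Benjamini and Hochberg over all tested genes of a comparison, with a threshold of 0.05; errors of fold changes are SE, those of levels SD. The labels tie the replicate number to read length and instrument, so it pairs the libraries. Same-numbered libraries deviated together from their group means (r of 0.489 to 0.737). For members other than Ly6d, a fit with the number as a block is given where it changed a call. For Ly6d the estimates of that fit are given without a call, and for the other genes it is given in part. The script was tested on simulated data. Positions come from the mm9 genome with the GENCODE M1 annotation, and coding sequences from the same genome; the promoter table is GRCm38.p6, and no coordinate was carried between builds. The members and gene lists were chosen with earlier results of these data known. Named beside the 6 members were further family genes called in either fit, or else the 3 with the highest mean, and per list those called without the block, or else up to 3 with the smallest p in ZnF4-/- against wild type, at most 4. The likeness search kept the 5 genes with the highest r. Alternatives were pseudocounts, filters, scalings, the trend, the block, averaging 2A and 2B, leaving out each library, and each read length alone. Among the marker genes, 1 is not reported here by name.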

Additional observations from a re-analysis of the deposited data

Results flagged for a closer look

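In Thy1 and Ly6c1 the mutant libraries lay on opposite sides of wild type at the 2 read lengths, and the difference between read lengths was not tested. For Thy1 the ZnF1-/- library was above wild type at 76 bp, with a log2 difference of 0.10, and below both wild type libraries at 50 bp, at -0.13. For Ly6c1 the ZnF1-/- library was below wild type at 76 bp, at -0.99, and above both wild type libraries at 50 bp, at 0.0317, while the ZnF4-/- library was below at 76 bp, at -0.12, and above at 50 bp, at 0.19. The Ly6c1 levels behind these values were 0.08 to 0.65 RPKM.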

How the results depend on the processing

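Of the members, Ly6k, Ly6a and Ly6e kept the sign of their difference in all 3 comparisons under each of the 18 alternatives run. Thy1 did so in ZnF4-/- against wild type alone (-0.5146 to -0.0794). Ly6d did so in all 3, but it was chosen for its low level in these libraries, so nothing is read from that. In ZnF4-/- against wild type Ly6d ranged from -2.13 (50 bp libraries only) to -1.26 (76 bp only), Ly6k from -2.06 (76 bp only) to -1.09 (50 bp only), and Ly6a against ZnF1-/- from 1.25 to 1.78. Thy1 changed sign: in ZnF1-/- against wild type it ranged from -0.3215 to 0.0731 with a library left out (0.0731 without ZnF1-/- library 1, 0.0027 without wild type 2B) and was 0.10 at 76 bp alone, and between the mutants it was 0.0729 with quantile normalization. So did Lypd6b in ZnF1-/- against wild type (-0.0134 without wild type 2B to 0.093 without 2A), Ly6c2 there (0.0694 at 50 bp alone) and Lynx1 between the mutants (-0.4726 without ZnF1-/- library 1 to 0.0385 without library 2); none of these was a call, and the cause was not tested.

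The number of genes called over the whole table moved more. In ZnF1-/- against wild type 9 were called, but 3 with no filter, 4 at a mean of at least 5 RPKM, 17 with libraries scaled to a common median (12 higher, 5 lower, beside 8 and 1), 14 with quantile normalization (10 higher, 4 lower), 14 without the trend, 1 with wild type 2A and 2B averaged, and 1 to 10 with a library left out. In ZnF4-/- against wild type 267 were called, but 596 with no filter, 54 at 5 RPKM, 130 with 2A and 2B averaged, and 44 (without ZnF4-/- library 2) to 253 with a library left out; scaling to a common median gave 377 and quantile normalization 374, with the lower calls moving from 32 to 73 and 77. Between the mutants 246 were called, but 576 with no filter, 51 at 5 RPKM and 90 (without ZnF4-/- library 2) to 318 (without wild type 1) with a library left out; the same scalings moved the lower calls from 34 to 70 and 80. With the replicate block the counts were 92, 863 and 765. Among the 4 tested members other than Ly6d, the block changed no call beyond those given in the report. The median SE of the ZnF4-/- to wild type difference was 0.203 without the block and 0.128 with it, which limits what can be seen in Ly6e and Thy1; how deeply the 50 bp libraries were read is unknown.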
